A study of Homo sapiens with 18 samples.

Results

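The genes that license, open and copy replication origins were followed in MDA-MB-231 cells after depletion of EZH2 or E2F1 and after inhibition of EZH2. The set comprised 47 genes, chosen by name for their part in DNA replication, out of 62703 gene identifiers in each file. It held 6 origin recognition genes, 3 genes of licence loading and its inhibition, the 6 genes of the MCM2-7 helicase, 2 other MCM genes and 7 genes of helicase activation. It also held 6 genes of the sliding clamp and its loader, 4 of polymerase alpha-primase, 5 of polymerases delta and epsilon, 2 of Okazaki fragment maturation, 3 of single-strand DNA binding and 3 of the fork scaffold and its protection. They were chosen by name and role with no threshold on a measured value, although earlier results of these data were known.

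MDA-MB-231 is an established human cell line of triple-negative breast cancer. Polyadenylated RNA was sequenced in 10 distinct libraries, with 2 libraries in each of 5 groups. In the knockdown experiment, cells carried a control shRNA, shEZH2 or shE2F1, delivered by lentivirus for 24 h and followed by selection with 2 μg/ml puromycin for 72 h, so that all 3 groups were transduced and selected. In the drug experiment, cells were exposed to DMSO or to 1 μM GSK126, a small molecule that blocks histone methylation by EZH2, for 72 h. The comparisons address whether EZH2 protein, its catalytic activity and the transcription factor E2F1 bear on the same genes. The supplement of the study lists a single target sequence each for shEZH2, shE2F1 and the control. Loss of the target and effects of the hairpin on other genes thus cannot be told apart. Whether libraries of a group came from separate cultures is not stated in the labels, so that p-values measure only the spread between these libraries, which may be technical.

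Replication origins are licensed in G1, when the origin recognition complex, CDC6 and CDT1 load the MCM2-7 helicase on DNA, and geminin, the product of GMNN, blocks further loading after S phase starts. Kinases, CDC45 and the GINS complex then turn the loaded helicase into the active one, and polymerases, the PCNA clamp and its RFC loader copy both strands. Many of these genes are known targets of the E2F transcription factors, and their transcripts are most abundant around the transition from G1 to S phase. In RNA of whole cultures, fewer cells in S phase and less RNA per cell cannot be told apart.

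Totals ranged from 13198932 (shEZH2 replicate 1) to 20055550 (DMSO replicate 1) expected counts per library, so that 3 counts, the limit set by a count of 0, correspond to 0.150 to 0.227 CPM (counts scaled to library size), by counting error only. VIM, CD44 and AXL, markers of a mesenchymal-like line, lay between 169 and 2860 TPM (a level scaled to gene length and library), and ESR1 and PGR lay at 0 to 0.17 TPM. CDH1 stood at 0.26 to 4.5 TPM, while EPCAM, a marker of epithelial cells, was present at 12.4 to 37.7 TPM. The markers PTPRC of leukocytes and PECAM1 of endothelium stayed at or under 0.72 TPM. The EZH2 transcript gave 153 and 181 CPM with control shRNA against 52.6 and 44.8 CPM with shEZH2. With shE2F1 it gave 121 and 137 CPM, also below both controls, at a log2 change of -0.37 (edgeR adjusted p = 0.0227). The E2F1 transcript gave 143 and 138 CPM with control shRNA, 26.0 and 22.5 CPM with shE2F1 and 62.4 and 32.3 CPM with shEZH2, so that both hairpins went with less E2F1 RNA. CPM values are scaled by TMM over the 10 libraries.

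Of the 47 replication genes, 12 were called lower with shEZH2 than with control shRNA and 0 were called higher, where a call needs an adjusted p under 0.01 in edgeR's quasi-likelihood test and a change of more than 2-fold. Over all 15373 genes tested, 10.7% were called lower and 7.52% higher. With no demand on fold, 24 of the 47 passed an adjusted p of 0.01 below the controls and 2 above them, against 21.5% and 20.2% of all genes tested. All 47 passed the filter on low counts in every comparison. The median log2 change of the 47 was -0.48, beside -0.02 for all genes tested. Of the 47, 38 lay below 0, beside 51.1% of all genes tested. In 34 genes both shEZH2 libraries lay below both control libraries, and in 5 genes both lay above. The same count was not made over all genes tested, so it is not read as a result about these genes. The summed level of the 47 was 4370 and 4590 CPM with control shRNA, 3250 and 2830 CPM with shEZH2, and 4170 and 4020 CPM with shE2F1.

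**Figure D1:**
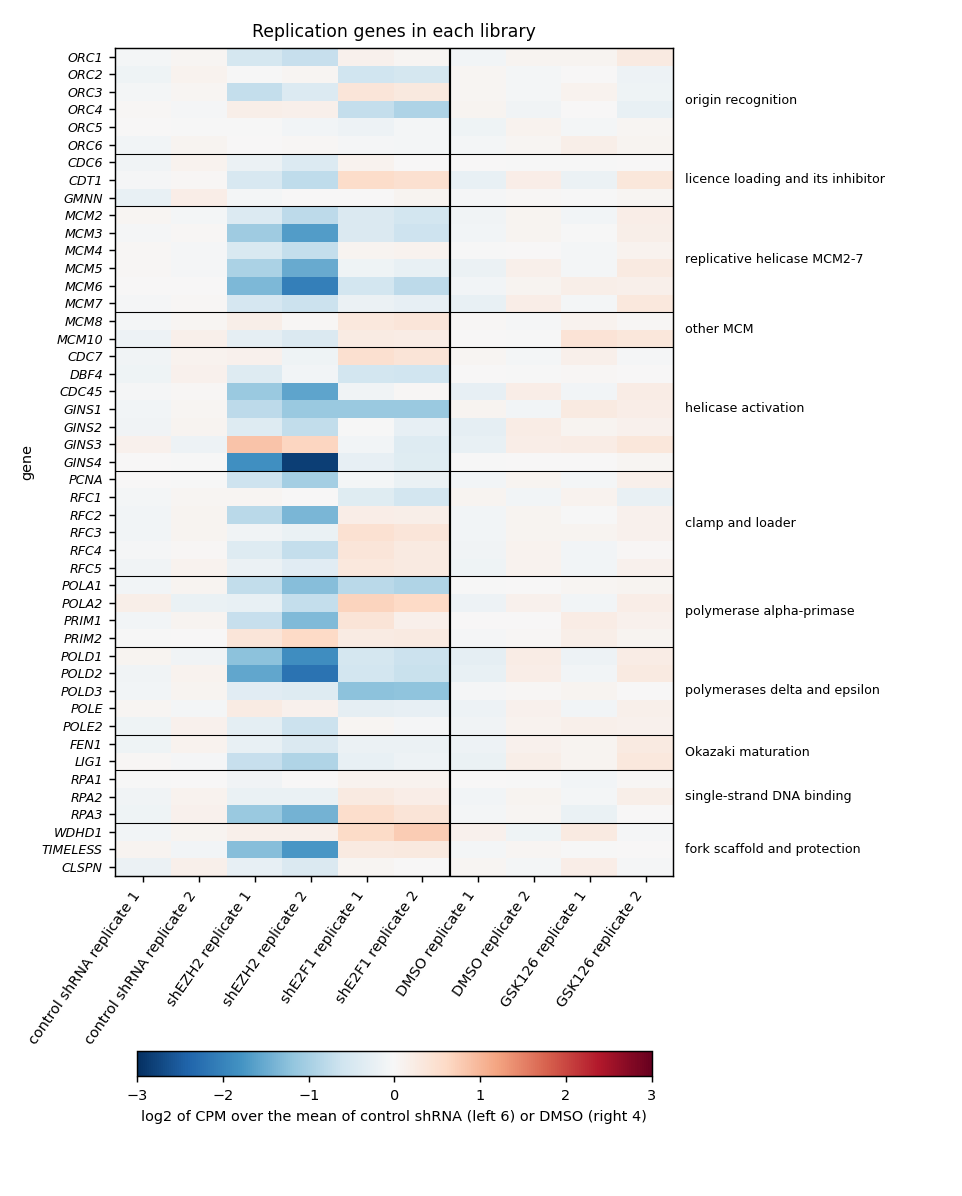
Each of the 47 replication genes (rows, by role) in each of the 10 libraries (columns). Colour gives the log2 of CPM over the mean of the 2 control shRNA libraries for the 6 knockdown libraries, and over the mean of the 2 DMSO libraries for the 4 drug libraries. The shEZH2 columns are mostly blue, darkest for GINS4, POLD2 and MCM6, and the drug columns are pale.

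Among the licensing factors upstream of the helicase, some lay below control with shEZH2 at less than 2-fold and others stood near it. Of the 6 origin recognition genes, whose products bind origins and recruit the loaders, 0 were called with shEZH2. ORC1 and ORC3 passed an adjusted p of 0.01 at less than 2-fold, with log2 changes of -0.62 and -0.57, and ORC2, ORC4, ORC5 and ORC6 lay between -0.06 and 0.15. CDC6, the ATPase that works with ORC in loading, gave -0.30 (edgeR adjusted p = 0.0352). CDT1, the partner that brings the helicase to ORC, stood at 56.0 and 58.3 CPM with control shRNA, 40.7 and 33.9 with shEZH2, 83.3 and 80.0 with shE2F1, 32.5 and 43.7 with DMSO, and 33.9 and 48.2 with GSK126. CDT1 was thus lowest of the knockdown groups with shEZH2 and highest with shE2F1, and no library of these 3 groups overlapped another group. Its log2 change against control was -0.63 ± 0.11 (SE, n = 2 libraries a group, edgeR adjusted p = 0.000673) with shEZH2 and 0.51 ± 0.11 (edgeR adjusted p = 0.003) with shE2F1. After correction for GC content and length the shEZH2 value of CDT1 was -0.10 (edgeR adjusted p = 0.508).

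GMNN, whose product inhibits CDT1, stood at 66.9 and 88.6 CPM with control shRNA, 74.1 and 78.9 with shEZH2, 78.6 and 82.7 with shE2F1, 52.7 and 55.7 with DMSO, and 54.1 and 56.1 with GSK126. The libraries of both knockdowns lay within the range of the controls, and the log2 change was -0.03 ± 0.13 (SE) with shEZH2 and 0.05 ± 0.12 with shE2F1.

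All 6 genes of the MCM2-7 helicase, the ring that unwinds DNA ahead of the fork, passed an adjusted p of 0.01 below control with shEZH2, and 3 of them were called at more than 2-fold. MCM6 showed the largest change of the ring. It stood at 131 and 131 CPM with control shRNA, 51.6 and 31.7 with shEZH2, 90.0 and 76.4 with shE2F1, 99.5 and 111 with DMSO, and 118 and 117 with GSK126. Both shEZH2 libraries lay below every other library, with a log2 change of -1.68 ± 0.18 (SE, n = 2 libraries a group, edgeR adjusted p = 3.09e-05). MCM3 stood at 333 and 349 CPM with control shRNA, 162 and 106 with shEZH2, 253 and 220 with shE2F1, 230 and 255 with DMSO, and 241 and 276 with GSK126. Its log2 change with shEZH2 was -1.36 ± 0.17 (edgeR adjusted p = 5.98e-05), again with both libraries below every other. MCM5 stood at 137 and 129 CPM with control shRNA, 69.2 and 46.3 with shEZH2, 122 and 114 with shE2F1, 93.9 and 117 with DMSO, and 101 and 127 with GSK126. Its log2 change was -1.22 ± 0.16 (edgeR adjusted p = 8.35e-05). That of MCM5 fell short of 2-fold at -0.94 without shEZH2 replicate 2 and at -0.97 after correction for GC content and length.

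The remaining subunits of the ring moved less. MCM2 stood at 169 and 158 CPM with control shRNA, 123 and 95 with shEZH2, 122 and 111 with shE2F1, 117 and 133 with DMSO, and 118 and 143 with GSK126. MCM4 stood at 236 and 227 CPM with control shRNA, 170 and 142 with shEZH2, 245 and 250 with shE2F1, 177 and 179 with DMSO, and 172 and 190 with GSK126. MCM7 stood at 446 and 473 CPM with control shRNA, 325 and 296 with shEZH2, 406 and 386 with shE2F1, 309 and 415 with DMSO, and 347 and 454 with GSK126. In these 3 genes the shEZH2 libraries lay below both controls, with log2 changes of -0.60 (MCM2), -0.58 (MCM4) and -0.58 (MCM7) and edgeR adjusted p of 0.00189, 0.000658 and 0.000323. After correction for GC content and length, MCM2 gave -0.27 and MCM7 -0.23, with edgeR adjusted p of 0.0601 and 0.0623. For MCM2, 23.6% of its exonic bases overlap a gene on the opposite strand, and for MCM7 7.9% overlap AP4M1, so that reads of these pairs may have been counted together if strand was not used.

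Since the subunits join the ring in equal numbers, their transcript levels were set beside each other per gene length. MCM7 had the highest and MCM6 the lowest level of the 6 in every one of the 10 libraries. The highest level was 5.41 and 5.70 times the lowest in the control libraries, 10.2 and 15.2 times with shEZH2, and 7.20 and 8 times with shE2F1. With DMSO the ratio was 5.06 and 6.03, and with GSK126 it was 4.77 and 6.20. The ratio in the shEZH2 libraries lay above that in all other libraries. In the control libraries the order ran from MCM7 (285 and 284 TPM) through MCM3 (174 and 175), MCM4 (111 and 95.2), MCM2 (76.2 and 67.0) and MCM5 (68.0 and 62.6) to MCM6 (52.6 and 49.9), and the ranges of MCM2 and MCM5 overlapped. The summed level of the ring was 767 and 734 TPM with control shRNA and 543 and 427 TPM with shEZH2.

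**Figure D2:**
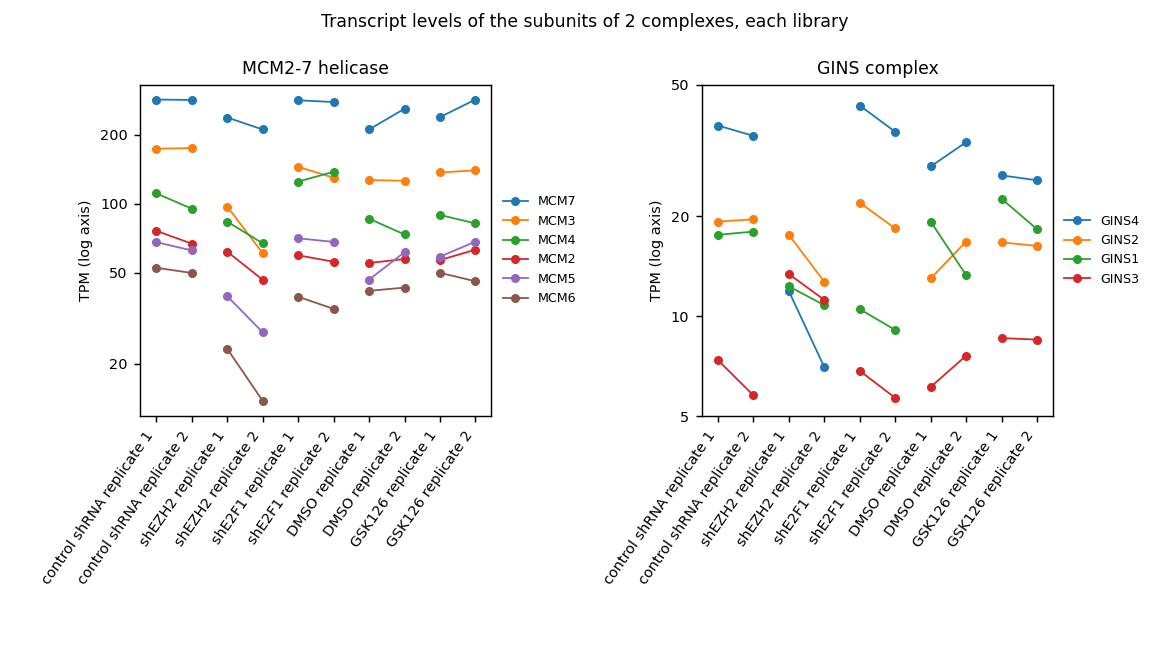
Levels of the MCM2-7 subunits (left) and of the GINS subunits (right) in TPM, on log axes, in each of the 10 libraries. A line joins the 2 libraries of a group. MCM6 drops furthest below MCM7 in the shEZH2 libraries (23.3 and 13.8 TPM), and GINS4 goes from the highest of its complex to the lowest.

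Because many of these genes are known E2F targets, their promoters were searched for E2F-type sites. RefSeq promoters (GRCh38.p14, 250 bases before to 50 bases after the start) were found for 41 of the 47 genes. Those of MCM4, MCM5, GINS4, POLD3, RPA2 and RPA3 were not found. The search covered TTTCCCGC, TTTCGCGC, TTTGCCGC and TTTGGCGC on both strands, and a match on 1 strand can overlap a match on the other. At least 1 match was present in 19 of the 41 (46.3%), against 908 of all 27305 promoters (3.33%). The matched promoters include those of 4 helicase genes, of the clamp and of a loading factor, and 1 window of 30 bases around a match, that nearest to the start, is given for each on the gene's strand with the matched letters in capitals, to set beside the values of these genes.
MCM2, chr3:127598402-127598431, plus strand: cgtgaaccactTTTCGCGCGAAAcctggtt
MCM3, chr6:52284728-52284757, minus strand: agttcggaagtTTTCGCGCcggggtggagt
MCM6, chr2:135876511-135876540, minus strand: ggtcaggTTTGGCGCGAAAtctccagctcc
MCM7, chr7:100101388-100101417, minus strand: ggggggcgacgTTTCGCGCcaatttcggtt
CDC6, chr17:40287875-40287904, plus strand: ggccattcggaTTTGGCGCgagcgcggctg
PCNA, chr20:5126663-5126692, minus strand: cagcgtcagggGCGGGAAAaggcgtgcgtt

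Further matches, not printed, lay 174 bases upstream of the start in MCM3, 152 and 148 bases upstream in MCM6 and 187 bases upstream in MCM7. In MCM2 and MCM6 the capitals hold 2 overlapping matches, 1 on each strand. The genes shown ranged from a log2 change of -1.68 (MCM6) to -0.30 (CDC6) with shEZH2, so that a match went with both a large and a small change. Of the matched genes not shown, GINS3 (0.73), POLE (0.18) and MCM8 (0.10) lay above 0, and the rest lay below it. Of the 9 genes called lower with shEZH2 that had a promoter in the table, 3 held a match (MCM3, MCM6 and POLA1). The median log2 change was -0.57 over the 19 genes with a match and -0.25 over the 22 without one in shEZH2, and -0.14 and 0.07 in shE2F1. CCAAT, the letters bound by NF-Y, occurred on either strand in 23 of the 41 promoters (56.1%) and in 35.7% of all promoters. TTTGAA, the core of the CHR element of genes expressed in G2 and mitosis, occurred in 1 of the 41, that of DBF4 (2.4%), and in 15.4% of all promoters. A match is a description of these letters and does not show that a factor binds there.

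Beyond the ring, MCM8, a related helicase of repair, and MCM10, which helps to start the fork, gave log2 changes of 0.10 and -0.37 with shEZH2, and neither was called. For MCM8, 33.3% of the exonic bases lie in another gene of that strand as well, which leaves its counts uncertain.

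Helicase activation held the largest change of all 47 genes. GINS4, a subunit of the GINS complex that joins MCM2-7 and CDC45 in the active helicase, stood at 73.5 and 72.0 CPM with control shRNA, 20.3 and 10.2 with shEZH2, 61.8 and 56.2 with shE2F1, 53.0 and 54.3 with DMSO, and 54.3 and 55.9 with GSK126. Both shEZH2 libraries lay below all other libraries, at a log2 change of -2.29 ± 0.23 (SE, n = 2 libraries a group, edgeR adjusted p = 1.7e-05). Of its exonic bases, 21.0% overlap a gene on the opposite strand. GINS1, a second subunit, stood at 31.8 and 35.1 CPM with control shRNA, 19.5 and 15.5 with shEZH2, 15.5 and 15.5 with shE2F1, 29.8 and 26.8 with DMSO, and 34.3 and 32.5 with GSK126. It lay below the controls in all 4 libraries of the knockdowns, at a log2 change of -0.95 ± 0.14 (edgeR adjusted p = 0.000212) with shEZH2, just under 2-fold, and of -1.12 ± 0.14 (edgeR adjusted p = 0.000101) with shE2F1. GINS2 gave -0.57, while GINS3 gave 0.73 ± 0.18 (edgeR adjusted p = 0.00588) and was 1 of the 2 replication genes that passed above control.

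The GINS subunits thus moved in opposite directions with shEZH2. By TPM, GINS4 was the highest of the 4 in the control libraries (37.6 and 35.0) and the lowest with shEZH2 (11.9 and 7.02), and it was the highest again in the 6 libraries of shE2F1, DMSO and GSK126. GINS3 was the lowest in those other 8 libraries. The summed GINS level was 81.9 and 78.4 TPM with control shRNA and 55.1 and 41.8 TPM with shEZH2.

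CDC45, the partner of GINS in the active helicase, stood at 48.3 and 50.2 CPM with control shRNA, 22.9 and 16.4 with shEZH2, 46.1 and 50.3 with shE2F1, 31.6 and 43.0 with DMSO, and 35.3 and 43.5 with GSK126. Its shEZH2 libraries were the 2 lowest of the 10, at a log2 change of -1.35 ± 0.15 (edgeR adjusted p = 3.04e-05), and its shE2F1 libraries overlapped the controls. The kinase CDC7 and its activator DBF4, which phosphorylate the loaded helicase, gave -0.01 and -0.24 with shEZH2 and passed no threshold. For DBF4, 14.8% of its 50-base stretches also occur in another gene, so that its counts are uncertain.

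The sliding clamp PCNA, which tethers polymerases to DNA, stood at 184 and 183 CPM with control shRNA, 120 and 90.2 with shEZH2, 175 and 159 with shE2F1, 136 and 154 with DMSO, and 140 and 161 with GSK126. Its shEZH2 libraries were the lowest, at a log2 change of -0.82 ± 0.13 (edgeR adjusted p = 0.000302), under 2-fold. RFC2, a small subunit of the loader that opens the clamp, stood at 80.1 and 89.7 CPM with control shRNA, 48.6 and 32.9 with shEZH2, 97.0 and 95.8 with shE2F1, 62.1 and 70.4 with DMSO, and 65.7 and 72.0 with GSK126. Its shEZH2 libraries lay below all others, at -1.08 ± 0.16 (edgeR adjusted p = 0.000186), and its shE2F1 libraries lay above both controls. The call on RFC2 was lost at -0.80 without shEZH2 replicate 2, at -0.99 without control shRNA replicate 2 and at -0.86 after correction for GC content and length. The other loader subunits gave 0.03 (RFC1), -0.16 (RFC3), -0.56 (RFC4) and -0.27 (RFC5), of which RFC4 passed an adjusted p of 0.01.

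Among the polymerases, the genes called with shEZH2 were those of polymerase delta, the main enzyme of the lagging strand, and of polymerase alpha-primase. POLD2, the B subunit of polymerase delta, stood at 173 and 200 CPM with control shRNA, 63.5 and 40.5 with shEZH2, 128 and 118 with shE2F1, 142 and 190 with DMSO, and 156 and 200 with GSK126. POLD1, its catalytic subunit, stood at 158 and 139 CPM with control shRNA, 62.9 and 40.8 with shEZH2, 103 and 95.4 with shE2F1, 94.6 and 133 with DMSO, and 103 and 133 with GSK126. In both genes the shEZH2 libraries were the 2 lowest of the 10. The log2 change with shEZH2 was -1.86 ± 0.17 (edgeR adjusted p = 1.25e-05) for POLD2 and -1.54 ± 0.17 (edgeR adjusted p = 3.14e-05) for POLD1, of whose exonic bases 8.63% are shared with a gene on the same strand. POLD3, an accessory subunit of the same enzyme, stood at 51.8 and 58.6 CPM with control shRNA, 43.5 and 41.9 with shEZH2, 23.7 and 23.8 with shE2F1, 41.6 and 43.4 with DMSO, and 44.8 and 42.8 with GSK126. Its lowest libraries were those of shE2F1. The change of POLD3 was -0.38 ± 0.10 with shEZH2 (edgeR adjusted p = 0.00912) and -1.22 ± 0.11 with shE2F1 (edgeR adjusted p = 1.02e-05), or -0.94 with an offset from effective gene length.

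Polymerase epsilon, the enzyme of the leading strand, moved less. Its catalytic subunit POLE gave a log2 change of 0.18 and its second subunit POLE2 one of -0.48 (edgeR adjusted p = 0.0207) with shEZH2.

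Polymerase alpha-primase lays the primers on both strands. POLA1, its catalytic polymerase subunit, stood at 89.2 and 98.7 CPM with control shRNA, 55.9 and 38.7 with shEZH2, 53.4 and 50.1 with shE2F1, 76.7 and 78.3 with DMSO, and 81.2 and 82.7 with GSK126. It was below the controls in both knockdowns, at -1.01 ± 0.15 (edgeR adjusted p = 0.00024) with shEZH2 and -0.87 ± 0.15 (edgeR adjusted p = 0.000846) with shE2F1, where 2-fold was not reached. PRIM1, the catalytic primase, stood at 17.9 and 19.8 CPM with control shRNA, 11.6 and 7.48 with shEZH2, 24.8 and 20.8 with shE2F1, 15.1 and 15.1 with DMSO, and 17.6 and 16.6 with GSK126. Its shEZH2 libraries were the 2 lowest and its shE2F1 libraries the 2 highest, at -1.01 ± 0.20 (edgeR adjusted p = 0.0014) with shEZH2. Both changes sat at the edge of 2-fold. They fell short of it at -0.75 (POLA1) and -0.70 (PRIM1) without shEZH2 replicate 2, and at -0.93 and -0.94 without control shRNA replicate 2. With every library kept, both gave -0.99 under DESeq2, an alternative to edgeR, and were not called. Neither was called with DESeq2 size factors in edgeR or in the fit of all 10 libraries. POLA1 was also not called among genes with a mean of at least 50 counts. PRIM2, the regulatory primase, was the second gene above control, at 0.47 ± 0.11 (edgeR adjusted p = 0.00353), and 12.6% of its 50-base stretches also occur in another gene. POLA2, the B subunit, stood at 21.7 and 16.8 CPM with control shRNA, 16.6 and 11.7 with shEZH2, 30.8 and 29.0 with shE2F1, 18.0 and 21.9 with DMSO, and 18.7 and 22.8 with GSK126. Against control it gave -0.47 (edgeR adjusted p = 0.0485) with shEZH2 and 0.62 (edgeR adjusted p = 0.0134) with shE2F1. Of the exonic bases of POLA2 and PRIM1, 16.8% and 10.9% are shared with a gene on the same strand.

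**Figure D3:**
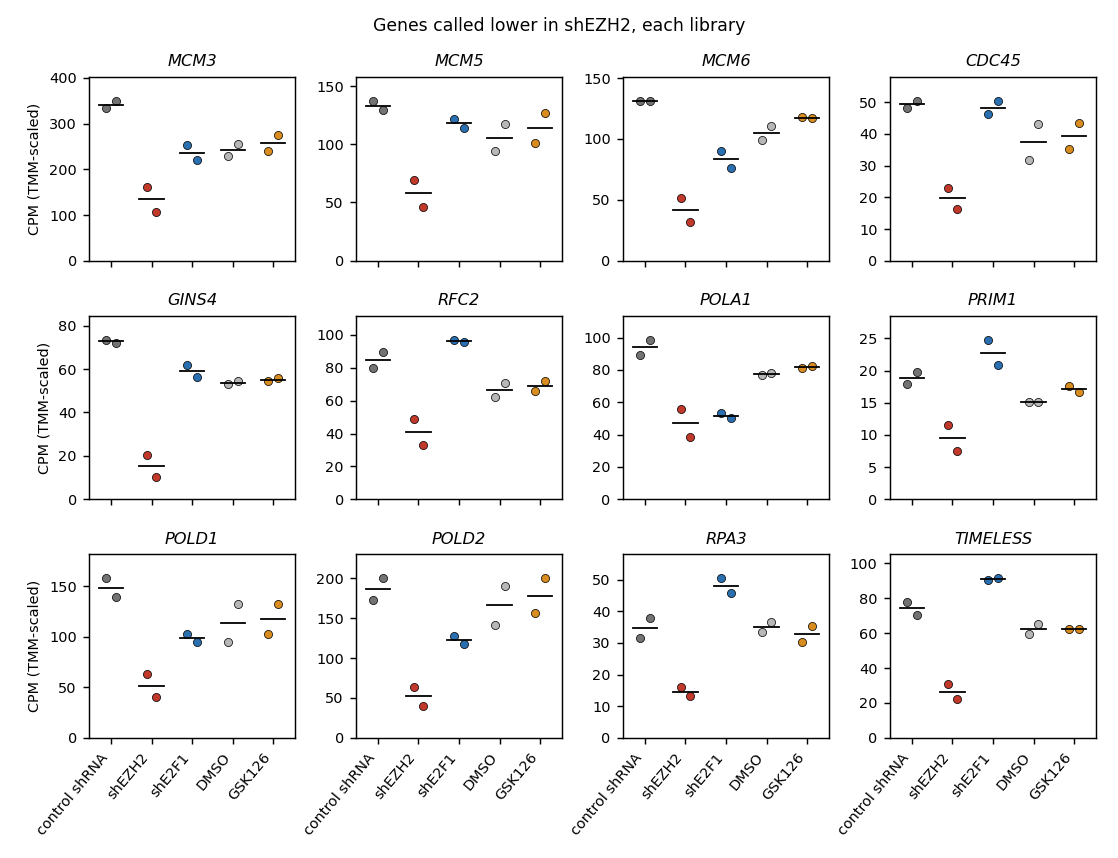
CPM of the 12 replication genes called lower with shEZH2, each library a point and the mean of the 2 libraries of a group a bar, on linear axes from 0. In each panel both shEZH2 points lie below both control points, and shEZH2 replicate 2 lies below replicate 1.

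At the remaining steps, LIG1, the ligase that seals Okazaki fragments, gave a log2 change of -0.80 ± 0.10 (edgeR adjusted p = 7.19e-05), and the flap nuclease FEN1 gave -0.33 (edgeR adjusted p = 0.0219). RPA3, the smallest subunit of the RPA complex that coats single-stranded DNA, stood at 31.6 and 37.9 CPM with control shRNA, 16.0 and 13.1 with shEZH2, 50.4 and 45.8 with shE2F1, 33.4 and 36.5 with DMSO, and 30.4 and 35.2 with GSK126. It was lowest with shEZH2 and highest with shE2F1, at -1.27 ± 0.14 (edgeR adjusted p = 3.62e-05) and 0.46 ± 0.13 (edgeR adjusted p = 0.0148). The larger subunits RPA1 and RPA2 gave -0.06 and -0.21 with shEZH2 and did not pass. TIMELESS, which holds helicase and polymerase together and protects the fork, stood at 78.1 and 70.5 CPM with control shRNA, 30.9 and 22.0 with shEZH2, 90.2 and 91.4 with shE2F1, 59.5 and 65.3 with DMSO, and 62.1 and 62.5 with GSK126. Its log2 change with shEZH2 was -1.51 ± 0.15 (edgeR adjusted p = 1.45e-05). WDHD1, a scaffold that links polymerase alpha to the helicase, and CLSPN, a mediator of the replication checkpoint, gave 0.14 and -0.35.

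The share of a complex that was called with shEZH2 varied, at 3 of the 6 MCM2-7 genes, 1 of the 4 GINS genes, 1 of the 5 RFC genes, 2 of the 4 genes of polymerase alpha-primase and 1 of the 3 RPA genes. Of polymerase delta, POLD1 and POLD2 were called and POLD3 was not, and POLD4, a subunit outside the 47, was called lower too. Under all 14 alternative analyses other than the thresholds without a fold, the calls on MCM3, MCM6, CDC45, GINS4, POLD1, POLD2, RPA3 and TIMELESS remained. Without shEZH2 replicate 2, the changes of MCM5, RFC2, POLA1 and PRIM1 fell short of 2-fold. That library lay below shEZH2 replicate 1 in 38 of the 47 genes, with a median log2 difference of -0.21 (0.01 over all genes tested), and its E2F1 level was also the lower one. Across the 15366 genes with a known GC content, the log2 change with shEZH2 correlated with GC content at r = -0.239, as a description, and the median GC content was 51.7% for the 12 genes called, 44% for the other 35 and 48% for all genes tested. Once libraries were corrected for GC content and gene length, 11 of the 47 and 1321 of all 15373 genes tested were called lower. MCM5 (-0.97) and RFC2 (-0.86) were then not called, while GINS1 was, at -1.11 (edgeR adjusted p = 4.01e-05).

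With shE2F1, 2 of the 47 genes were called lower than control, GINS1 and POLD3 as given above, and 0 were called higher, against 5.96% and 5.6% of all genes tested. With no demand on fold, 8 passed an adjusted p of 0.01 below control and 3 above it, against 16.5% and 13.6% of all genes tested, so that the shares of these genes were near or under those of all genes. The lower ones were GINS1, POLD3, ORC2 (-0.57), ORC4 (-0.82), MCM2 (-0.50), DBF4 (-0.59), RFC1 (-0.46) and POLA1 (-0.87). The higher ones were CDT1 (0.51), RFC3 (0.41) and WDHD1 (0.67). The median log2 change was -0.04, and it took the other sign at 0.03 without control shRNA replicate 2. Of the 47, 24 lay below 0 and 23 above it, where 50% of all genes tested lay below 0. In 20 genes both shE2F1 libraries lay below both controls, and in 19 they lay above, again without a count over all genes tested.

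The shE2F1 and shEZH2 changes were both taken against the same 2 control libraries, so the knockdowns were also compared directly. Against shE2F1, 11 of the 47 genes were lower with shEZH2 and 0 were higher, where 12.9% and 10.4% of all genes tested were called. The median log2 difference was -0.48. The largest differences were those of GINS4 (-1.98 ± 0.23, SE, edgeR adjusted p = 2.72e-05), TIMELESS (-1.79 ± 0.15, edgeR adjusted p = 2.67e-06) and RPA3 (-1.74 ± 0.14, edgeR adjusted p = 2.77e-06). CDC45 (-1.31), PRIM1 (-1.28), RFC2 (-1.25) and POLD2 (-1.25) followed. CDT1 (-1.14), POLA2 (-1.09), MCM5 (-1.04) and MCM6 (-1.01) completed the list, and CDT1 and POLA2 are in it although neither was called against control in either knockdown. MCM3, POLD1 and POLA1, called lower with shEZH2 against control, were not called in the direct comparison, and POLA1 differed by -0.14 ± 0.15. The differences of MCM5, MCM6, RFC2, POLA2, PRIM1 and POLD2 fell short of 2-fold when shEZH2 replicate 2 was left out. The largest differences above 0 were 0.96 for ORC4 and 0.96 for GINS3, both called under some alternative only. After correction for GC content and length 7 of the 47 and 1676 of all 15373 genes tested were lower, and CDT1 then stood at -0.59.

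GSK126 left the 47 genes near their DMSO levels. With edgeR 0 were called in either direction, as were 0% of all 14632 genes tested. The log2 changes ran from -0.10 (ORC4) to 0.38 (MCM10), with a median of 0.07, beside -0.01 for all genes tested. Of the 47, 38 lay above 0 and 9 below it, where 51.6% of all genes tested lay below 0. At an unadjusted p under 0.05, 1 of the 47 genes and 577 of all genes passed, and DESeq2 called 0 of the 47, with 10 of all genes higher and 1 lower. That gene was MCM10, at 31.1 and 30.2 CPM with DMSO and 40.8 and 38.9 with GSK126, a log2 change of 0.38 ± 0.12 (SE, edgeR adjusted p = 1). The summed level of the 47 was 3330 and 3740 CPM with DMSO and 3550 and 3910 with GSK126, ranges that overlap. EZH2 itself stood at 123 and 126 CPM with DMSO and 133 and 142 with GSK126.

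**Figure D4:**
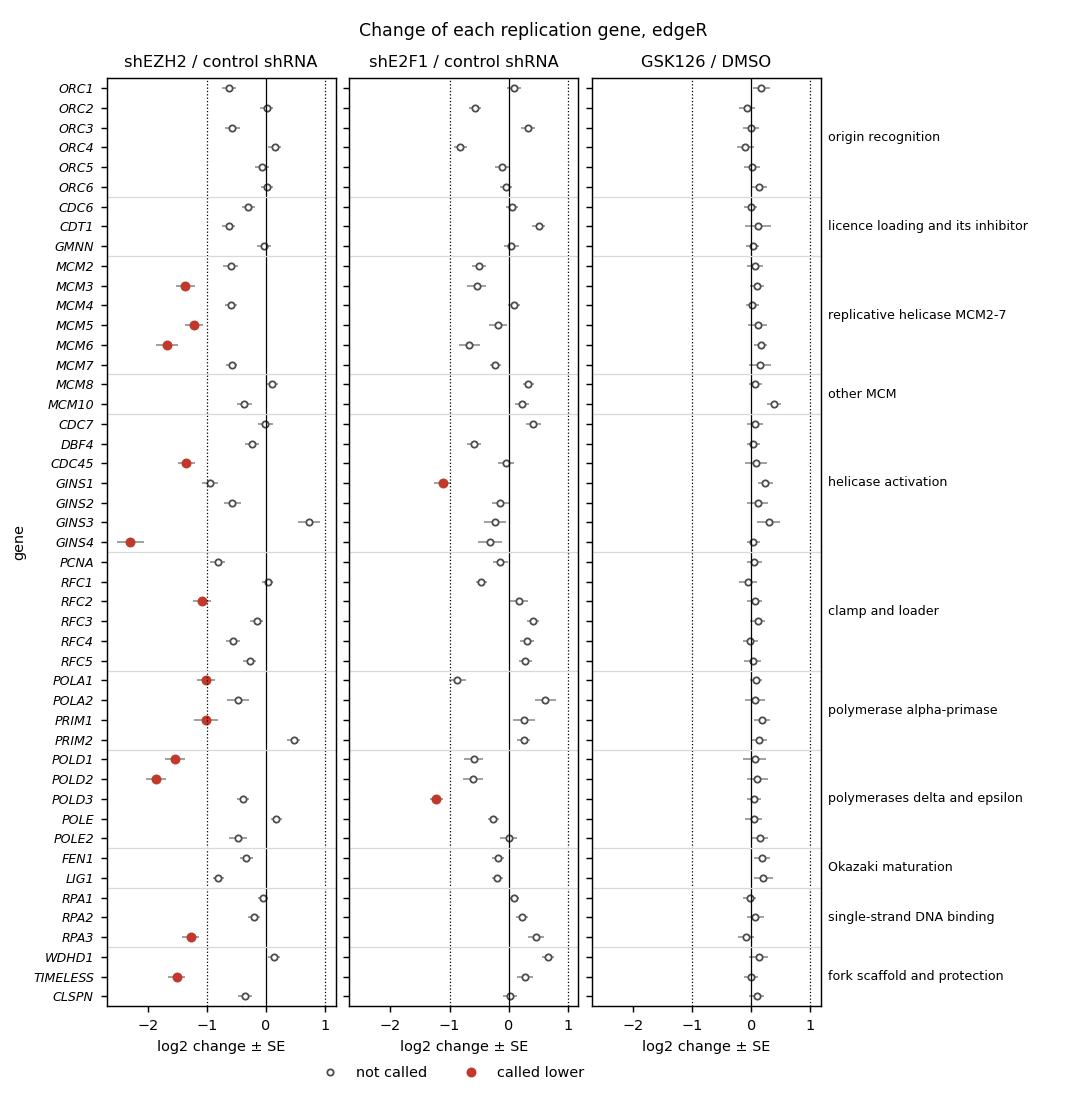
Log2 change ± SE (edgeR) of each of the 47 replication genes, by role, for shEZH2 and shE2F1 against control shRNA and for GSK126 against DMSO. Filled red points are called lower and dotted lines mark 2-fold. Called genes number 12, 2 and 0, and the GSK126 points run from -0.10 to 0.38.

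Whether the shEZH2 change differed from the GSK126 change was tested in a fit of all 10 libraries. The difference was lower in 13 of the 47 genes and higher in 0, where 8.67% and 5.13% of all 15773 genes tested were called. These were the 12 genes called with shEZH2 and GINS1, and the median difference over the 47 was -0.56. The groups of this comparison differ in transduction and selection as well as in the treatment of EZH2, which cannot be told apart from the difference between depletion and inhibition.

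Lists of other genes of the pathway are set beside the 10.7% lower and 7.52% higher of all genes tested with shEZH2. In the list of origin firing and licence control, 1 of 19 genes was called lower, the PCNA-binding factor PCLAF (-1.08), a share under that of all genes. In the list of fork protection and the S phase checkpoint, also under it, 1 of 15 was lower, TONSL, a factor of fork repair (-1.39), and 1 was higher, the kinase WEE1 (2.02-fold). In the list of nucleases, loaders and small subunits, 4 of 17 were lower, led by RNASEH2C (-2.83) and RNASEH2A (-1.61), subunits of the nuclease that removes ribonucleotides from DNA. Of 11 genes of chromatin assembly at forks, 4 were lower, and of 5 genes of the G1/S cyclins and their kinases, 2 were lower, CCND1 (-1.25) and CDK2 (-1.10). With shE2F1, POLD4, the smallest subunit of polymerase delta, was higher (1.47), and with shEZH2 it was lower (-1.03), a direct difference of -2.50 ± 0.13 (SE, edgeR adjusted p = 2.55e-07).

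The markers of G2 and mitosis moved with both knockdowns. With shEZH2, 6 of the 24 were called lower, beside 10.7% of all genes tested, at a median log2 change of -0.55. With shE2F1, 8 were called lower, beside 5.96% of all genes tested, at a median of -0.87. Their summed level was 5390 and 6230 CPM with control shRNA, 3950 and 3980 with shEZH2, 3010 and 3160 with shE2F1, 4040 and 4280 with DMSO, and 4070 and 4360 with GSK126. AURKB (-2.30), PLK1 (-1.65) and KIF20A (-1.64) led the list with shEZH2, and KIF20A (-1.78), PLK1 (-1.26) and CCNB1 (-1.26) led it with shE2F1. In the direct comparison of the knockdowns, 1 of the 24 was called higher with shEZH2, CENPF (2.31-fold), and 1 lower, AURKB (0.353 of the level with shE2F1), with a median log2 difference of 0.16 and 10 of the 24 below 0. The summed level was thus lowest with shE2F1, while single markers stood on both sides. By flow cytometry, the study reports fewer cells in G1 and more in G2 and mitosis with either knockdown, so lower markers need not mean fewer such cells. The part of cell cycle position in the values of the 47 genes was not tested.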

How the data were processed

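Libraries were made with a directional kit from polyadenylated RNA, and 10 distinct libraries were used. Among the 18 sample records, 8 held the same values as another and each library entered 1 time. Groups and replicate numbers were taken from the labels. The authors mapped reads with STAR to hg38 with Ensembl release 108 genes and estimated abundance per gene with RSEM. The submitters' processing notes give STAR 2.7.2b and RSEM 1.3.1, and the methods of the study name another STAR version. The deposited expected counts divide a read that maps to several genes between them. The deposited TPM values, scaled by the authors' software for gene length and library, were used only for levels between genes, and deposited effective lengths only in an alternative. Whether counting used the strand is not given in the sources used here.

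Expected counts were rounded and fitted in edgeR 4.0.16 (R 4.3.3) with filterByExpr and TMM, and tested by quasi-likelihood, with p-values adjusted by Benjamini-Hochberg across each whole table. The 6 knockdown libraries (15373 genes, biological coefficient of variation 0.0948) and the 4 drug libraries (14632 genes, 0.126) were fitted apart, with no covariate. The difference between the shEZH2 and GSK126 changes came from a fit of all 10 (15773 genes, 0.110). Calls needed an adjusted p under 0.01 and a change above 2-fold, as in the methods of the study. The SE is the log2 change over the square root of F. The code was checked on simulated data with known changes.

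The 47 genes and the companion lists were chosen with earlier results of these data known. Every gene of the 47 was named, with values in every library for those called in any comparison, the MCM2-7 genes, PCNA and GMNN. Of each companion list, at most the 3 called genes per comparison with the largest change and a mean of at least 200 counts were named. Gene overlaps and GC content came from GENCODE release 44, in which 62625 of 62703 identifiers (99.9%) were found, and a stretch of 50 bases was used to look for sequence shared between genes. Alternatives were DESeq2 1.42.0, its size factors in edgeR, no filter, a mean of at least 50 counts, an offset from effective length, correction for GC content and length by splines (5 degrees of freedom), a replicate block, other sets of libraries, other thresholds, and leaving out each library.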

Additional observations from a re-analysis of the deposited data

Results flagged for a closer look

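The effect of shEZH2 differed from that of GSK126 by the test of the difference itself (edgeR, 10 libraries, adjusted p under 0.01 and more than 2-fold) in 13 of the 47 genes. Values are the shEZH2 log2 change minus the GSK126 log2 change. In the helicase and its activation the difference was -1.44 for MCM3, -1.31 for MCM5, -1.83 for MCM6, -1.41 for CDC45, -1.18 for GINS1 and -2.31 for GINS4. Among the polymerases it was -1.08 for POLA1, -1.18 for PRIM1, -1.58 for POLD1 and -1.95 for POLD2. It was -1.12 for RFC2 of the clamp loader, -1.17 for RPA3 of the single-strand binding complex and -1.49 for TIMELESS at the fork. Every one of the 13 lay below 0. Groups of 2 libraries are too small for a search for outlying libraries.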

How the results depend on the processing

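Of 41 calls on single genes, 26 were kept under every alternative, and of 682 values under alternatives 634 stayed on their side of the threshold, 48 fell short of it and 0 changed sign. The 682 and the 634 include the thresholds without a fold, which every call passes by definition, so these values could not fall short. The 41 also include calls on EZH2 and E2F1, the targets of the hairpins, which are not among the 47. Among uncalled genes a sign changed under some alternative in 9 of 35 with shEZH2, 7 of 45 with shE2F1 and 33 of 47 with GSK126. Of the 50 calls on companion genes that the naming rule selects, 30 were kept throughout and 0 changed sign.

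The number lower with shEZH2 rose from 12 to 24 at an adjusted p of 0.01 with no demand on fold. At 0.05 it was 30, with 2 higher at either. Over all 15373 genes tested the number lower rose from 1647 to 3302 and 4404. With shE2F1 it rose from 2 to 8 and 13, with 3 and 9 higher, and it fell to 1 with the effective length offset. Against shE2F1, the number lower with shEZH2 rose from 11 to 25 and 30, with 6 and 7 higher, fell to 7 under GC and length correction, and ran from 6 (without shEZH2 replicate 2) to 14 with a library left out, with 0 to 2 higher. For the difference from GSK126 it rose from 13 to 25 at 0.05. Leaving out a library moved the median log2 change between -0.65 and -0.38 with shEZH2, between -0.12 and 0.031 with shE2F1, and between -0.73 and -0.44 for the difference from GSK126. GC and length correction moved the shE2F1 median from -0.04 to -0.13. The causes were not tested.

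The replicate numbers were checked by correlating, across 11919 genes with a mean of at least 50 counts, the difference between replicates 2 and 1 in pairs of groups. The correlation was 0.663 for DMSO and GSK126 and between -0.081 and 0.205 for the other pairs, and the labels name no shared batch. With the replicate block, 12 of the 47 were lower with shEZH2, 2 with shE2F1, 11 in the direct comparison and 14 for the difference from GSK126. Over all genes tested the numbers lower were 1636, 925, 1983 and 1520, in the same order. Under GSK126 the replicate block called 0 of the 47 genes but 53 of all genes higher and 15 lower, so that the count of 0 over all genes depends on the pairing. With no demand on fold, 5 of the 47 then passed an adjusted p of 0.01 in edgeR, all above DMSO. They were MCM10 (log2 change 0.38, edgeR adjusted p = 0.000147), MCM7 (0.15, 0.000574), FEN1 (0.18, 0.00114), LIG1 (0.21, 0.00115) and MCM6 (0.17, 0.00805). The same count was not made over all genes tested, so it is not read as a result about these genes. At an unadjusted p under 0.05 in edgeR, the block took the number over all 14632 genes tested from 577 to 3720. With the replicate block and GC correction together, 7 of the 47 and 1616 of all genes tested were lower in the direct comparison. The shE2F1 median was then -0.13. SEs of 0.106 to 0.216 in log2 for the 47 genes under GSK126, with 2 libraries a group, limit how small a change could be detected.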

Other observations

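By role, the summed CPM of the origin recognition genes was 213.4 and 227.9 with control shRNA and 204.9 and 208.1 with shEZH2, and that of the single-strand binding genes was 299.6 and 320.8 against 270.2 and 282.3. The sums of the MCM2-7 genes were 1451.4 and 1467 against 900 and 716.5, and those of polymerases delta and epsilon 543.5 and 549.7 against 345.8 and 284.5. With shE2F1 the fork scaffold and protection genes summed to 331.9 and 347.4 CPM, above the 257.5 and 286.9 of control shRNA. These sums were not tested.

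In the direct comparison of the knockdowns, 10.4% of all genes tested were called higher with shEZH2 and 12.9% lower (edgeR, n = 2 libraries a group). In the list of origin firing and licence control, 2 of 19 genes were called higher and 2 lower, shares near or under those of all genes. In the list of fork protection and the S phase checkpoint, 1 of 15 was higher and 3 were lower. SKP2, a subunit of a ubiquitin ligase that targets CDT1, was higher with shEZH2 than with shE2F1, at a log2 difference of 1.98 ± 0.11 (SE), as was CUL4A, a scaffold of another ligase that targets CDT1, at 1.52 ± 0.09. With an offset from effective gene length CUL4A gave 0.87 and was not called. The CDT1 transcript was lower in the same comparison, at -1.14, but at -0.59 and not called after correction for GC content and length. These ligases act on CDT1 protein, which was not measured, and a link to its RNA was not tested. TRAIP, a ubiquitin ligase that acts in unloading of the helicase, was lower (-1.34), as were TIPIN, the partner of TIMELESS (-1.26), and HUS1 of the checkpoint clamp (-1.39), and these 3 calls and that on SKP2 were kept under all 14 alternatives.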
